A study of Mus musculus with 14 samples.

Results

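The genes described here encode negative feedback regulators of the mitogen-activated protein kinase (MAPK) pathways: the dual-specificity phosphatases Dusp1, Dusp4, Dusp5, Dusp6 and Dusp10, the Sprouty proteins Spry1, Spry2 and Spry4, and the Sprouty-related proteins Spred1 and Spred2. They were chosen by gene name, as every non-control probe that the array annotates to 1 of these 10 names, which gave 12 probes. All 10 were among the 21356 genes tested. The array's own annotation placed 3 of the probes on Spred1 and 1 on each other gene.

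mSCC-38 cells derive from a mouse squamous carcinoma of the skin raised with DMBA, a mutagen, and TPA, a tumour promoter. The study asked how their transcripts respond to 2 distinct siRNAs against the transcript AK144841. The groups were cells transfected with the first siRNA (Si1AK, 4 arrays) or the second (Si2AK, 3 arrays), cells transfected with a control siRNA (SiC, 3 arrays) and non-transfected cells (NT, 4 arrays). Transfected cells received their siRNA with the lipid reagent RNAimax and were harvested at 72 h, whereas no time was given for NT. All samples were the same cell line grown in serum-containing DMEM, with 0.2 µg of RNA of integrity number 9 labelled with Cy3, and nothing in the labels makes the replicates separate cultures, so p-values reflect a spread between samples that may be technical. The level of AK144841 itself was not analysed here. Both siRNAs share the SiC and NT arrays as controls, so their differences from these are not independent of each other.

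MAPK cascades carry signals from growth factor receptors and stress through chains of kinases to the kinases ERK, JNK and p38. ERK activity switches on genes for proteins that shut it off again: Sprouty and Spred proteins act near receptors, RAS and RAF, and dual-specificity phosphatases remove the activating phosphates from the kinases themselves. In mouse skin, DMBA and TPA tumours typically carry an activating Hras mutation, which feeds this cascade. The labels do not state whether mSCC-38 does.

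A level below is the log2 processed signal of a gene's probe minus the 75th percentile of the array, so levels compare arrays for 1 gene and do not rank genes. On Si2AK replicate 2 the median processed signal was 107.5, and on SiC replicate 1 it was 270.9, where the other 12 arrays had 23.5 to 58.7. Their spots were well above background in 84.9% and 90.5% of cases, where the other 12 arrays had 52.7% to 60.1%. The arrays lay on 2 slides of 7, which coincided with the scan. Slide 1 held SiC replicate 1 alone of its group and slide 2 held Si2AK replicate 3 alone of its group. All 12 probes were well above background on every array that gave them a value and none was saturated. Of 10 markers of keratinocytes and squamous carcinoma, 9 were well above background on all 14 arrays, among them Krt5 and Trp63, and Cdh1 on 2. Several markers of other cell types were above background throughout, such as Itgam, Cd68, Kdr and Pdgfra, whereas Tyrp1 was on no array and Lyz2 on 2.

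Of the 10 genes, Dusp10 was higher after both siRNAs, and Dusp4 and Dusp5 were higher after Si2AK. A call means an adjusted p under 0.05 in a limma fit over all genes. Against SiC, 1 of the 10 genes was higher after Si1AK and none lower, where 4.39% of all genes tested were called, 3.17% as higher and 1.22% as lower. After Si2AK, 3 of the 10 were higher than in SiC and none lower, where 13.2% of all genes were called, 8.52% as higher and 4.67% as lower. The median log2 difference of the 10 genes was 0.25 for Si1AK and 0.40 for Si2AK, where the medians over all genes were -0.06 and -0.02. Differences were above 0 for 9 of the 10 genes after Si1AK and for 8 after Si2AK, against 41.4% and 47.5% of all genes. Without the 2 arrays of raised signal the counts against SiC were again 1 and 3, but the gene called after Si1AK was then Dusp5 (0.90, adjusted p = 0.0394, limma), and Dusp10 missed the threshold (0.45, adjusted p = 0.0993, limma). Bulk arrays cannot tell a change of RNA per cell from a change in the share of cells that make it.

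**Figure D1:**
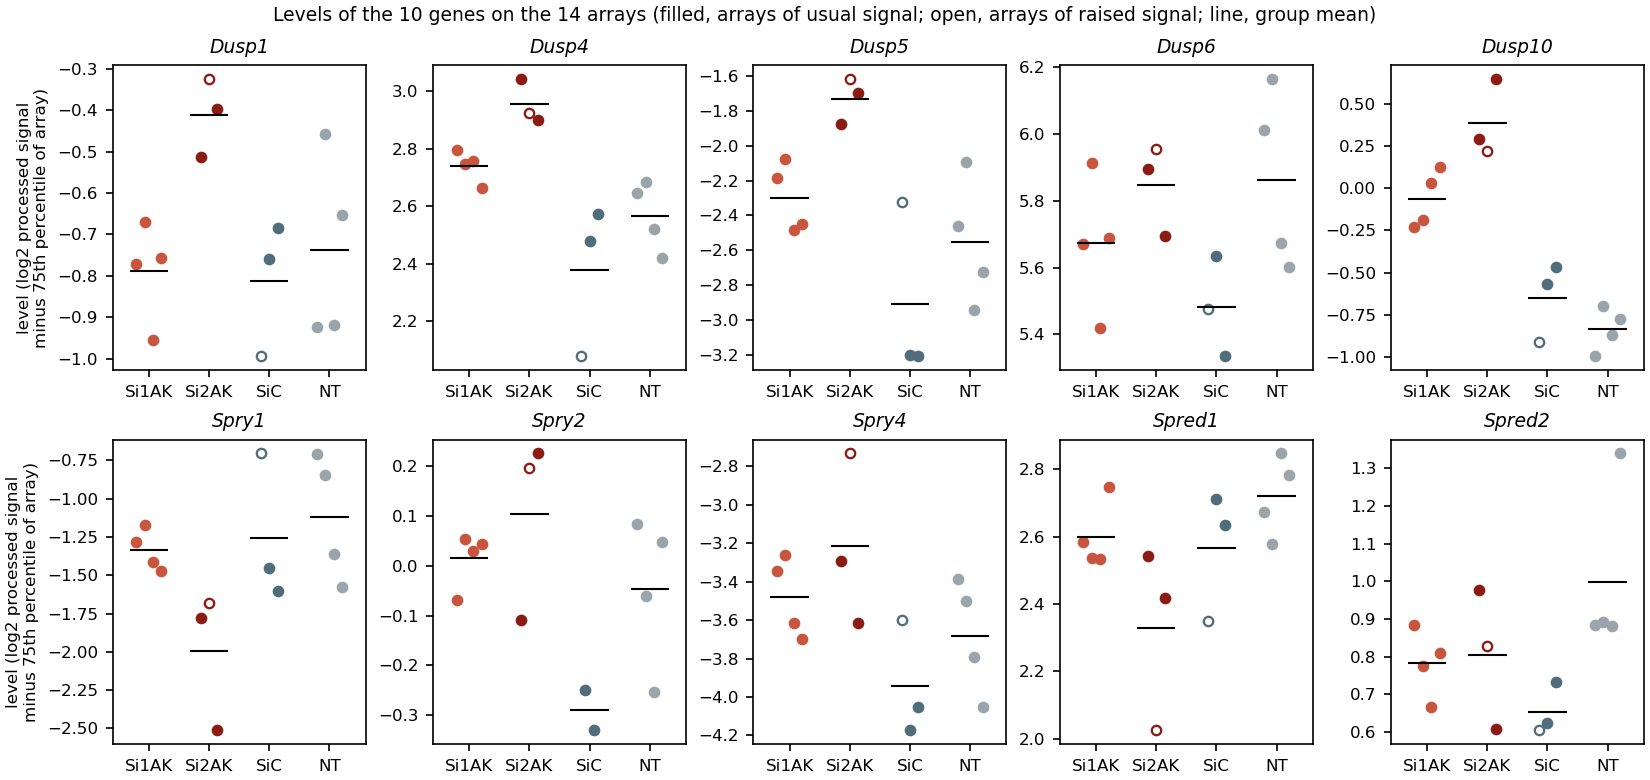
Level of each of the 10 genes (log2 processed signal minus the 75th percentile of the array; axes differ between genes) on each array, by group from Si1AK and Si2AK to SiC and NT. Points are arrays, open where the signal of the whole array was raised, and lines are group means. All Dusp10 points of both siRNA groups lie above all those of SiC and NT, and the Si2AK points of Dusp5 and Dusp4 lie above all others.

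Dusp10 encodes a phosphatase that prefers p38 and JNK over ERK. Its probe lies at chr1:185898608-185898667 in mouse build mm9. The 250 bases that precede the annotated start of transcription are shown for Dusp10, for Dusp5, which was also called after Si2AK, and for Spry1, whose difference after Si2AK was negative. They are RefSeq sequences of build GRCm38.p6 on the plus strand, at chr1:184034131-184034380 for Dusp10, chr19:53528895-53529144 for Dusp5 and chr3:37639697-37639946 for Spry1, where capitals mark matches to the motifs named next.
Dusp10: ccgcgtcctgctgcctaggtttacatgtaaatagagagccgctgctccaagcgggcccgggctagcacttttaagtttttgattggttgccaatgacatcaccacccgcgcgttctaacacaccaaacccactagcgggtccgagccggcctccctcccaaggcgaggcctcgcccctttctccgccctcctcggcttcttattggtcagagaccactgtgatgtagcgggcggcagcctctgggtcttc
Dusp5: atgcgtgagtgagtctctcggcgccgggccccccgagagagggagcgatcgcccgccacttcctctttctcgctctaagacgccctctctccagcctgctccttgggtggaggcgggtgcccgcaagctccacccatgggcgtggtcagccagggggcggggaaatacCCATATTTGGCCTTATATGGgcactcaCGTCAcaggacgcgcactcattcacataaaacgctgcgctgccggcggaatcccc
Spry1: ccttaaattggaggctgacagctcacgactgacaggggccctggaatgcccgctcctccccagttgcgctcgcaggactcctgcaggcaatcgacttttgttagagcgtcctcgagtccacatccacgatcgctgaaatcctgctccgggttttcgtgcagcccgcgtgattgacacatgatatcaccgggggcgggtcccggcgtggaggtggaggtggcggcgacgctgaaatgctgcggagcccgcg

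Promoter windows were listed for 8 of the 10 genes, all but Dusp4 and Spry4. They were searched on both strands for the cyclic AMP response element TGACGTCA, its short core TGACG, the AP-1 site TGACTCA, the ETS core CCGGAA, and the CArG box that serum response factor binds. The window of Dusp5 held 2 CArG boxes end to end, at 82 to 73 and 72 to 63 bases before the start, and the short core at 55 to 51 bases before it. The windows of Dusp10 and Spry1 held no match. The full cyclic AMP response element, which contains the short core on both strands, was found in Dusp1 at 143 to 136 bases before the start. Separate short cores were found in Dusp1 at 191 to 187 bases and in Spred2 at 51 to 47 bases before the start. Among 32851 windows of this length, 1.55% held the full element, 17.77% the short core, 4.46% the AP-1 site, 12.03% the ETS core and 1.47% a CArG box. These matches describe letters and not sites in use.

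Dusp10 stood at -0.23, -0.19, 0.03 and 0.12 in Si1AK and at 0.29, 0.22 and 0.65 in Si2AK, against -0.91, -0.57 and -0.47 in SiC and -0.99, -0.70, -0.87 and -0.77 in NT. Every array of either siRNA was above every SiC and NT array, and every Si2AK array was above every Si1AK array. The mean level was -0.07 ± 0.17 in Si1AK (SD, n = 4) and -0.65 ± 0.23 in SiC (SD, n = 3), a log2 difference of 0.58 ± 0.14 (SE), or 1.50-fold (adjusted p = 0.0420, limma). In Si2AK it was 0.39 ± 0.23 (SD, n = 3), which was 1.03 ± 0.15 above SiC, or 2.05-fold (adjusted p = 0.00133, limma). Against NT, with -0.83 ± 0.13 (SD, n = 4), the differences were 0.77 ± 0.13 for Si1AK (1.70-fold, limma adjusted p = 0.00508) and 1.22 ± 0.14 for Si2AK (2.33-fold, limma adjusted p = 0.000224).

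The direct difference of Dusp10 between Si2AK and Si1AK was 0.45 (95% interval 0.14 to 0.76) and missed the threshold (adjusted p = 0.0613, limma). SiC was 0.19 above NT (95% interval -0.13 to 0.50), without a call. The call of Si1AK against SiC was the least stable of the 4 on Dusp10. It was lost under 6 of 14 other settings and when 11 of the 14 arrays were left out one at a time. Without SiC replicate 1 the difference was 0.45 (adjusted p = 0.122, limma). Within slide 1 the difference was 0.70 and within slide 2 it was 0.59, where neither passed (adjusted p of 0.0797 and 0.103, limma), and with the slide as a block it was 0.62 (adjusted p = 0.00569, limma). Si2AK against SiC gave 1.16 within each slide.

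Dusp5, Dusp4 and Dusp1 encode phosphatases of the nucleus. Dusp5 is specific for ERK and also holds it in the nucleus, and Dusp4 and Dusp1 act on ERK, JNK and p38. The levels of Dusp5 were -2.18, -2.08, -2.48 and -2.45 in Si1AK and -1.88, -1.62 and -1.70 in Si2AK, against -2.32, -3.20 and -3.20 in SiC and -2.46, -2.10, -2.94 and -2.72 in NT. The Si2AK arrays were the highest of the 14, and Si1AK overlapped both control groups. Si2AK was 1.18 ± 0.25 (SE) above SiC, or 2.26-fold (adjusted p = 0.0107, limma), and 0.82 ± 0.24 above NT (adjusted p = 0.0362, limma). Si1AK was 0.61 above SiC (95% interval 0.09 to 1.13, adjusted p = 0.191, limma) and 0.26 above NT (95% interval -0.23 to 0.74), without a call.

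The values of Dusp5 differed between slides in SiC and NT. SiC replicate 1, of raised signal and on slide 1, stood at -2.32 where the SiC arrays of slide 2 stood at -3.20. Slide and raised signal cannot be told apart there. The processed signal of Dusp5 ran from 73.1 on SiC replicate 2 to 285.3 on Si2AK replicate 1. On SiC replicate 1 it was 215, below the median of that array, 270.9. Si2AK minus SiC was 0.57 within slide 1 and 1.50 within slide 2. In NT the slide means were -2.28 and -2.83. Without SiC replicate 1, Si2AK was 1.47 above SiC and Si1AK was 0.90 above SiC, which then passed (adjusted p = 0.0361, limma). The call of Si2AK against NT was lost under 7 of 14 other settings and with 7 of the 14 arrays left out, with values between 0.46 and 1.13.

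The levels of Dusp4 were 2.79, 2.75, 2.76 and 2.66 in Si1AK and 3.04, 2.92 and 2.90 in Si2AK, against 2.08, 2.48 and 2.57 in SiC and 2.64, 2.68, 2.52 and 2.42 in NT. The Si2AK arrays were the highest of the 14, and all Si1AK arrays lay above all SiC arrays but not above all NT arrays. Its probe is at chr8:35882045-35882104 in mm9. Si2AK was 0.58 ± 0.12 (SE) above SiC, or 1.49-fold (adjusted p = 0.00931, limma), and 0.39 ± 0.11 above NT (adjusted p = 0.0381, limma). Si1AK was 0.36 above SiC (95% interval 0.11 to 0.61, adjusted p = 0.106, limma).

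SiC replicate 1, of raised signal, was the lowest array for Dusp4. Si2AK minus SiC was 0.90 within slide 1, which holds that array, and 0.38 within slide 2, and neither passed within a slide. Without that array the difference over both slides was 0.43 (adjusted p = 0.0129, limma). Si1AK minus SiC was 0.21 without that array (adjusted p = 0.247, limma), and 0.69 within slide 1 and 0.18 within slide 2. Against NT the call was lost under 5 of 14 other settings and with 10 of the 14 arrays left out. Fitting only the Si2AK and SiC arrays ended the calls of Dusp10, Dusp5 and Dusp4 against SiC (adjusted p of 0.0894, 0.132 and 0.178, limma).

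Dusp1, an immediate early gene in many cell types, was not called in any comparison. It stood at -0.77, -0.67, -0.96 and -0.76 in Si1AK and at -0.51, -0.33 and -0.40 in Si2AK, against -0.99, -0.76 and -0.68 in SiC and -0.92, -0.46, -0.92 and -0.65 in NT. The Si2AK arrays lay above all Si1AK and SiC arrays, and 1 NT array lay among them. Si2AK minus SiC was 0.40 (95% interval 0.10 to 0.70, adjusted p = 0.0768, limma) and Si2AK minus Si1AK was 0.38 (95% interval 0.10 to 0.65, adjusted p = 0.0796, limma). Si1AK minus SiC was 0.02 (95% interval -0.25 to 0.30).

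Dusp6 encodes the cytoplasmic phosphatase of ERK, and its transcript is widely used as a readout of ERK activity. Its levels were 5.67, 5.91, 5.42 and 5.69 in Si1AK and 5.89, 5.96 and 5.69 in Si2AK, against 5.48, 5.63 and 5.33 in SiC and 6.01, 6.16, 5.67 and 5.60 in NT. The Si2AK arrays lay just above the SiC arrays and within the range of NT, and the Si1AK arrays overlapped both. No comparison of Dusp6 passed: Si1AK minus SiC was 0.19 (95% interval -0.15 to 0.53) and Si2AK minus SiC 0.37 (0.0033 to 0.73). Against NT the intervals were -0.50 to 0.12 for Si1AK and -0.35 to 0.32 for Si2AK. SiC minus NT was -0.38 (95% interval -0.72 to -0.04), and NT levels were 6.09 on slide 1 and 5.64 on slide 2 on average.

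**Figure D2:**
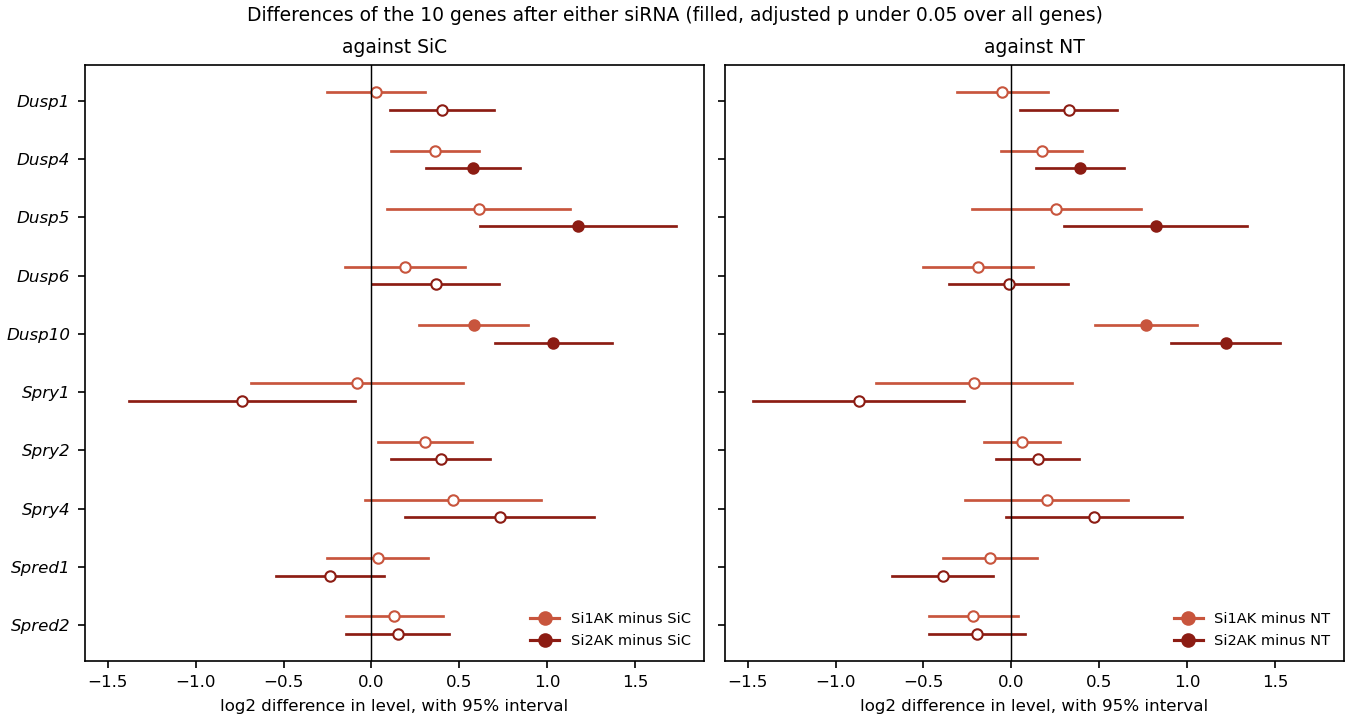
Log2 difference in level of each gene, with its 95% interval, for Si1AK and Si2AK minus SiC (left) and minus NT (right). Filled points have an adjusted p under 0.05 over all genes. Dusp10 is filled 4 times, Dusp5 and Dusp4 for Si2AK on both sides, and no Sprouty or Spred gene.

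Sprouty proteins are induced by receptor signalling and bind adaptors and RAF to damp it. None of the 3 Sprouty genes was called against SiC or NT. Spry1 was the 1 gene of the 10 with a negative difference over 0.5 in size from SiC or NT. It stood at -1.28, -1.17, -1.41 and -1.47 in Si1AK and at -1.78, -1.68 and -2.51 in Si2AK, against -0.70, -1.46 and -1.60 in SiC and -0.71, -0.84, -1.36 and -1.58 in NT. The Si2AK arrays were the lowest of the 14, and replicate 3 was lower than the other two. Si2AK minus SiC was -0.74 ± 0.29 (SE, adjusted p = 0.134, limma) and Si2AK minus NT was -0.87 ± 0.27 (SE, adjusted p = 0.0535, limma). The difference from NT passed under 10 of 14 other settings and with 2 of the 14 arrays left out. The difference from SiC passed under 2 of 14 other settings and with no array left out.

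Slide means of Spry1 differed within SiC, with -0.70 on slide 1 and -1.53 on slide 2, and within NT, with -0.78 and -1.47. With the slide as a block Si2AK was -0.93 from SiC (adjusted p = 0.00186, limma) and -0.97 from NT (adjusted p = 0.000645, limma), and both then passed. Within slides, Si2AK minus SiC was -1.03 and -0.98, and Si2AK minus NT was -0.95 and -1.04. Without SiC replicate 1 and with no slide term, Si2AK minus SiC was -0.46 (adjusted p = 0.341, limma). Si1AK minus SiC was -0.53 within slide 1 and 0.09 within slide 2, and did not pass with the block (-0.18, adjusted p = 0.379, limma).

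Spry2 and Spry4 had positive differences from SiC after both siRNAs. Spry2 stood at -0.07, 0.05, 0.03 and 0.04 in Si1AK and at -0.11, 0.20 and 0.23 in Si2AK, against -0.25 and -0.33 in SiC and 0.08, -0.06, -0.25 and 0.05 in NT. SiC replicate 1 had no value for Spry2, since its spot was marked uneven, so SiC had n = 2. Both siRNA groups lay above those SiC arrays and overlapped NT. The difference was 0.30 (95% interval 0.04 to 0.57, adjusted p = 0.204, limma) for Si1AK and 0.39 (0.11 to 0.67, adjusted p = 0.0680, limma) for Si2AK.

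Spry4 stood at -3.34, -3.26, -3.61 and -3.70 in Si1AK and at -3.29, -2.73 and -3.62 in Si2AK, against -3.60, -4.17 and -4.05 in SiC and -3.39, -3.50, -3.79 and -4.05 in NT. The groups overlapped, and the highest array was Si2AK replicate 2, of raised signal. Si2AK minus SiC was 0.73 (95% interval 0.19 to 1.26, adjusted p = 0.0746, limma) and Si1AK minus SiC 0.46 (-0.04 to 0.96, adjusted p = 0.303, limma). With the slide as a block Si2AK minus SiC was 0.57 and passed (adjusted p = 0.0166, limma). The probe was dim, with a processed signal from 37.2 on SiC replicate 2 to 127.2 on Si2AK replicate 2. On SiC replicate 1 it was 88.6, below the median of that array, 270.9. Under the 14 other settings Si2AK minus SiC lay between 0.34 and 1.59.

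Spred1 and Spred2 encode membrane proteins that bring the RAS GTPase activator neurofibromin to RAS. Spred1 stood at 2.58, 2.54, 2.53 and 2.75 in Si1AK and at 2.54, 2.03 and 2.42 in Si2AK, against 2.35, 2.71 and 2.63 in SiC and 2.67, 2.58, 2.85 and 2.78 in NT. Si2AK overlapped SiC and lay below NT, and its lowest array was replicate 2, of raised signal. Si2AK minus NT was -0.39 (95% interval -0.68 to -0.10, adjusted p = 0.0690, limma) and Si2AK minus SiC was -0.24 (-0.54 to 0.07). Without Si2AK replicate 2 these differences were -0.24 from NT (adjusted p = 0.272, limma) and -0.08 from SiC (adjusted p = 0.697, limma).

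The values above are of the brightest of 3 Spred1 probes, A_55_P2079430. In a fit of every probe on its own, chosen after seeing the data and covering 30299 probes, a second probe of the same transcript, A_55_P2079425, gave -0.58 for Si2AK minus NT and passed (adjusted p = 0.00236, limma). The probe of the other transcript variant, A_55_P2090045, gave 0.04 (95% interval -0.36 to 0.44). It was much dimmer, with a processed signal of 59.4 on NT replicate 1, where the other 2 probes had 3672 and 5126. The probes thus gave unlike values, but the unlike value rests on a dim probe. For Si2AK minus SiC the probes of the first transcript gave -0.24 and -0.27 and the third gave 0.11. A_55_P2079425 was also below NT in the other groups, without a call. It gave -0.32 for SiC minus NT (95% interval -0.53 to -0.10) and -0.31 for Si1AK minus NT (-0.51 to -0.12).

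Spred2 stood at 0.88, 0.78, 0.67 and 0.81 in Si1AK and at 0.98, 0.83 and 0.61 in Si2AK, against 0.60, 0.63 and 0.73 in SiC and 0.88, 0.89, 0.88 and 1.34 in NT. All SiC arrays lay below all NT arrays, and both siRNA groups overlapped SiC. Si1AK minus SiC was 0.13 (95% interval -0.14 to 0.40) and Si2AK minus SiC was 0.15 (-0.14 to 0.44), without a call.

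Transfection with the control siRNA was compared with no transfection. No gene of the 10 was called by limma in SiC against NT, where 0% of all genes were called, and 2 of the 10 and 1584 of all genes had an unadjusted p under 0.05. These 2 were Dusp6, at -0.38, and Spred2, at -0.35 (95% interval -0.62 to -0.07). For Spred2 the NT mean includes replicate 4, which stood apart at 1.34. With 1 array left out at a time the Spred2 difference lay between -0.38 and -0.23. By the exact permutation test over arrays, 1 of the 10 passed without adjustment, Spred2, at the smallest p that 3 against 4 arrays allow (two-sided p = 0.0286). Of all genes with full values, 1.64% lay wholly above NT in SiC and 4.32% wholly below. Differences were below 0 for 9 of the 10 genes, all but Dusp10, with a median of -0.22. Over all genes the median was -0.01, and 48.6% of differences were above 0.

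Both siRNAs were also compared with NT. Here, 1 of the 10 genes was higher after Si1AK and none lower than in NT, where 7.07% of all genes were called, 4.03% as higher and 3.03% as lower, and the median of the 10 was 0.01. After Si2AK, 3 of the 10 were higher than NT and none lower, where 15.6% of all genes were called, 7.97% as higher and 7.68% as lower, and the median was 0.24. Over all genes the medians were -0.09 and 0.02. The genes called were Dusp10 for Si1AK and Dusp10, Dusp5 and Dusp4 for Si2AK. Differences above 0 numbered 5 of 10 for Si1AK and 6 of 10 for Si2AK, against 37.4% and 52.7% of all genes.

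The siRNAs were also set against each other. In Si2AK against Si1AK no gene of the 10 was called by limma, where 12.5% of all genes were, 6.33% as higher and 6.15% as lower, and 4 of the 10 and 5020 of all genes had an unadjusted p under 0.05. These were Dusp10 at 0.45, Dusp1 at 0.38, Dusp5 at 0.57 (95% interval 0.05 to 1.09) and Spry1 at -0.66 (95% interval -1.26 to -0.05). By the exact permutation test, 5 of the 10 reached the smallest p that 3 against 4 arrays allow (two-sided p = 0.0286): the same 4 and Dusp4. All Si2AK arrays lay above all Si1AK arrays for 4 of them and below for Spry1, where 17.4% and 12% of all genes with full values did. For Si2AK against SiC the smallest p that 3 against 3 arrays allow is 0.1, so that test cannot pass there.

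**Figure D3:**
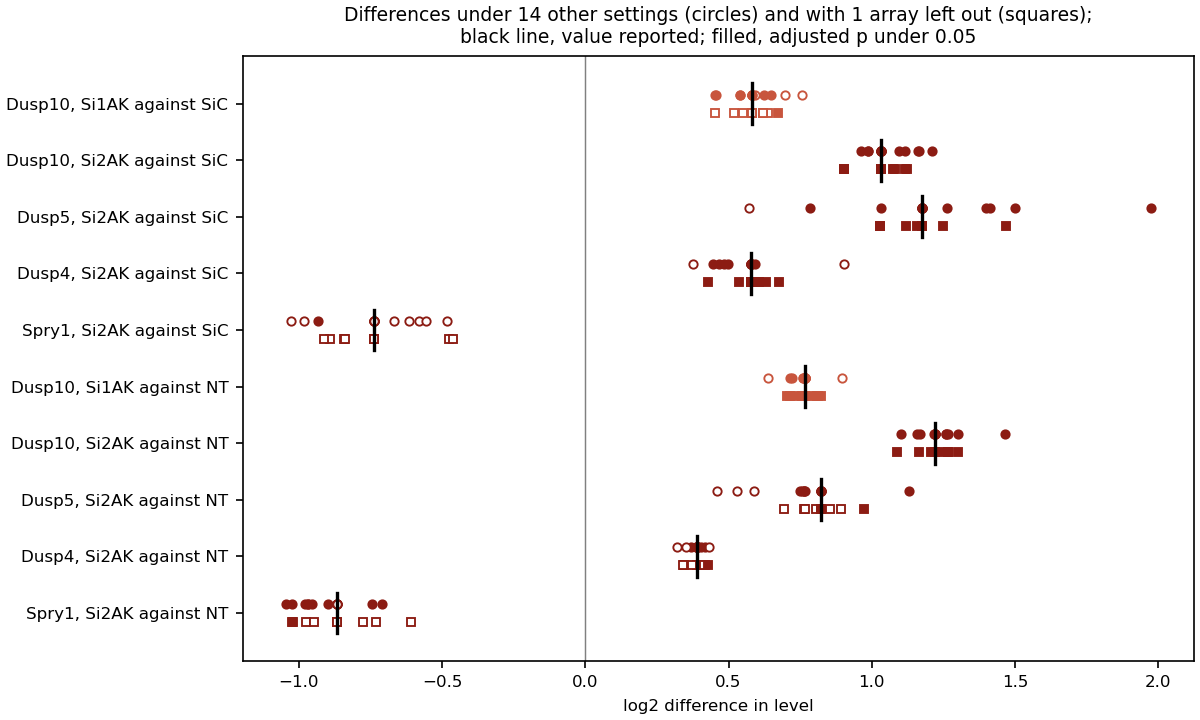
Log2 differences for Dusp10, Dusp5, Dusp4 and Spry1 under other settings (circles), with 1 array left out (squares) and as reported (black lines). Filled symbols have an adjusted p under 0.05. The Dusp10 difference of Si2AK against NT is filled throughout, that of Si1AK against SiC is mostly open among the squares, and no difference crosses 0.

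Groups that did not overlap were counted for the same genes. All Si1AK arrays lay above all SiC arrays for 3 of the 10 and below for none, where 10.7% and 8.85% of all genes with full values did. All Si2AK arrays lay above all SiC arrays for 6 of the 10 and below for 1, Spry1, where 16.6% and 9.33% of all genes did. Both counts above SiC include Spry2, which has 2 SiC arrays. Over the 9 genes with full values they were 2 for Si1AK and 5 for Si2AK. Against NT the counts were 1 above and none below for Si1AK, where 9.16% and 12.2% of all genes did, and 3 above and 2 below for Si2AK, where 14.1% and 12.7% did.

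Genes whose level followed that of a called gene most closely over the 14 arrays were found by Pearson correlation, given as a description since the arrays share groups and slides. For Dusp10 these were AA467197, Speg and Cryaa, with r of 0.97, 0.97 and 0.96, and 0.96, 0.97 and 0.95 without the 2 arrays of raised signal. For Dusp5 they were Klrg1, Stfa2 and Rnd1, with r of 0.92, 0.90 and 0.90, and 0.91, 0.92 and 0.91 over those 12 arrays. For Dusp4 they were Arpc1a, Ube2f and Nmt1, with r of 0.97, 0.95 and 0.95, and 0.93, 0.90 and 0.90 over those 12 arrays.

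Other genes of the pathway were counted by list. Of 69 listed genes 67 were tested, and 6 were higher and none lower after Si1AK than in SiC, with a median difference of 0.13. Of all genes tested, 3.17% were higher and 1.22% lower, with a median of -0.06. After Si2AK 13 of the 67 were higher and 3 lower than in SiC, with a median of 0.17. Of all genes tested, 8.52% were higher and 4.67% lower, with a median of -0.02. Of the other 5 MAP kinase phosphatase genes, none was called after Si1AK, and 2 were higher and 1 lower after Si2AK. Dusp8, a phosphatase of JNK and p38, stood at 0.86, 0.53 and 0.41 in Si2AK, against -1.42, -1.67 and -1.34 in SiC, with Si1AK between -1.85 and -1.28 and NT between -1.67 and -1.34. Its Si2AK arrays stood apart from all others, by 2.08 ± 0.17 (SE) from SiC (adjusted p = 5.31e-05, limma) and by 2.12 ± 0.16 from Si1AK.

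Dusp16, which also acts on JNK and p38, was 0.50 higher in Si2AK than in SiC (adjusted p = 0.0362, limma). Dusp7, a cytoplasmic phosphatase of ERK, was the gene of this list that was lower: it stood at 3.30, 3.03 and 3.33 in Si2AK, against 3.52, 3.85 and 3.81 in SiC, a difference of -0.51 ± 0.12 (SE, adjusted p = 0.0163, limma). The Si2AK arrays lay below all SiC arrays. Spry3 was well above background on no array, and Spred3 did not pass in either comparison with SiC.

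**Figure D4:**
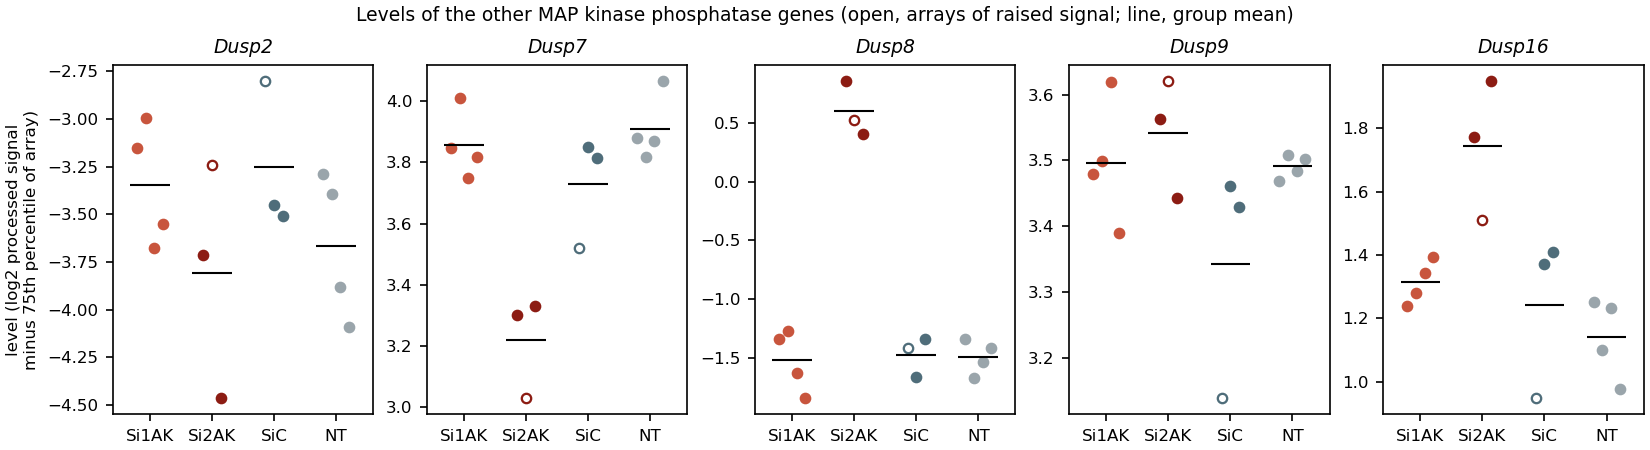
Level (log2 processed signal minus the 75th percentile of the array) of the other 5 MAP kinase phosphatase genes, by group from Si1AK and Si2AK to SiC and NT. Points are arrays, open where the signal was raised, and lines are group means. The Si2AK points of Dusp8, between 0.41 and 0.86, lie above all others and those of Dusp7 lie below all others.

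A list of 13 genes known as outputs of ERK signalling was chosen with earlier results of these data known, so its counts are a description. After Si1AK 4 were higher than in SiC and none lower, with a median difference of 0.38. Of all genes, 3.17% were higher and 1.22% lower, with a median of -0.06. After Si2AK 7 were higher than in SiC and none lower, with a median of 0.85. Of all genes, 8.52% were higher and 4.67% lower, with a median of -0.02. Etv4, Etv5, Egr1 and Ccnd1 were called in neither comparison with SiC. For Si1AK the 3 of smallest adjusted p were the transcription factor genes Myc, at 0.51, and Fosl1, at 0.50, and Phlda1, at 0.45. For Si2AK they were Ereg, at 1.91, and Hbegf, at 1.87, which encode ligands of the EGF receptor family, and Phlda1, at 0.87. Ereg stood at 4.34, 4.02 and 4.68 in Si2AK, against 2.17, 2.50 and 2.63 in SiC, with Si1AK between 2.13 and 2.65. The siRNAs differed directly for 8 of the 13, 7 higher and 1, Myc, lower in Si2AK than in Si1AK (limma). Of all genes, 6.33% were higher and 6.15% lower. Against NT no gene of this list was called by limma after Si1AK, with a median of 0.08, whereas 6 were higher after Si2AK. Of all genes, 4.03% were higher than NT after Si1AK and 7.97% after Si2AK.

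**Figure D5:**
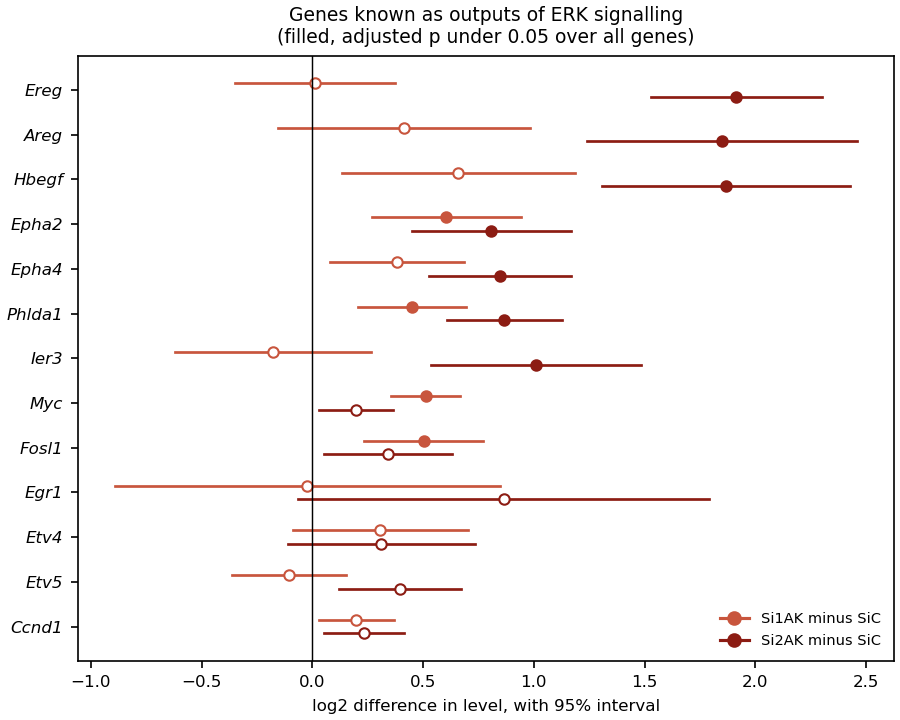
Log2 difference in level, with its 95% interval, of 13 genes known as outputs of ERK signalling for Si1AK and Si2AK minus SiC. Filled points have an adjusted p under 0.05 over all genes, 4 for Si1AK and 7 for Si2AK, and the points furthest to the right are Ereg, Areg and Hbegf in Si2AK.

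Of the kinases downstream of ERK and p38, 2 of 7 were higher after either siRNA than in SiC. Of all genes, 3.17% were higher after Si1AK and 8.52% after Si2AK. The kinase genes called were Rps6ka5, at 0.46, and Mapkapk3, at 0.46, for Si1AK. For Si2AK they were Mapkapk3, at 0.81, and Mapkapk2, at 0.44. Upstream, Map2k6, a kinase that activates p38, was 1.23 lower in Si2AK than in SiC, the 1 call among 12 genes of the JNK, p38 and ERK5 arms. Nras, the 1 call among 3 RAS genes, was 0.63 lower. Map2k2 was 0.39 higher, the 1 call among 10 genes of RAF, MEK, ERK and scaffolds. Sos2 was 0.45 higher, the 1 call among 6 receptor adaptors and exchange factors. None of 4 RAS GTPase activators was called. Of all genes, 8.52% were higher and 4.67% lower. No gene of these upstream lists was called in Si1AK against SiC by limma, where 4.39% of all genes were. Against NT, Grb2 and Map3k1 were lower after Si1AK, at -0.54 and -0.34, and after Si2AK, at -0.74 and -0.36. Map2k6 and Nras were also lower than NT after Si2AK, and Sos2 and Gab1 were higher. Of all genes, 3.03% were lower than NT after Si1AK. After Si2AK 7.97% of all genes were higher than NT and 7.68% lower.

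Markers moved beside the Si2AK values too. Of the 9 tested markers of keratinocytes and squamous carcinoma, 6 were higher in Si2AK than in SiC, where 8.52% of all genes were. None was called in Si1AK against SiC. Against NT, 1 of the 9 was higher in Si2AK and 2 were lower in Si1AK, where 7.97% and 3.03% of all genes were. The mean level of the 9 was between 6.42 and 6.50 in Si2AK, against 5.74 to 6.12 in SiC and 5.98 to 6.30 in NT. Of 5 tested fibroblast markers 1 was higher in Si2AK than in SiC. Their list means were between -3.15 and -1.88 in Si2AK, against -3.32 to -1.88 in SiC. No leukocyte, endothelial or melanocyte marker was called by limma in either comparison with SiC. Their part in the differences of the 10 genes was not tested.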

How the data were processed

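Whole-genome expression of mSCC-38 cells was measured on 14 1-colour Agilent arrays. Agilent Feature Extraction 10.7.3.1 quantified the scans and mm9 is the genome build of the probes, per the file headers. Its processed signal is, per the file headers, an intensity net of background and of spatial trends on the array, not scaled between arrays. The deposited files also hold raw mean and local background intensities and 0 or 1 marks, a unit other than intensity, for spots that were uneven, outlying, saturated or well above background. A value table that the authors deposited is on a log2 scale. Its columns, all with a median of 6.51, followed log2 of the raw mean signal (r across spots of at least 0.99), which bears out the log2 scale and the direction. The background step behind it is unknown. Limma is the tool that the submitters' processing notes name.

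Control spots and spots marked uneven or outlying were left out, and spots of a probe were averaged to 55681 probes. From the log2 processed signal the 75th percentile of its array was subtracted. A probe stayed in (30299 did) where all arrays of some group marked it well above background, and each gene was represented by its brightest probe. The test covered 21356 genes, 14601 of them with a symbol and 296 with single values missing. Symbols came from the array and from RefSeq accessions for 27656 probes. One model of the 4 groups was fitted to the 14 arrays in limma 3.58.1 under R 4.3.3, using lmFit and eBayes with 10 residual degrees of freedom, with Benjamini-Hochberg adjustment over all genes and calls at an adjusted p under 0.05. Precision is limited by the number of arrays. The script was tested on simulated data.

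The 10 genes, the pathway and marker lists and the promoter motifs were chosen with earlier results of these data known. All 10 genes are named, and for each called gene the 3 genes most alike in level. Called genes of the other pathway lists are named at most 3 a list in a comparison, by the smallest adjusted p. Alternatives were normexp, quantile scaling, the authors' table, other probe filters, slide and replicate blocks, single slides, fewer arrays, array weights, exact permutation tests and each array left out.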

Additional observations from a re-analysis of the deposited data

Results flagged for a closer look

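Of the 24 groups of 4 arrays that the 12 probes give, 3 held an array whose gap to its nearest neighbour took more of the group's range than the 95% critical value of Dixon's test for 4 samples allows, and about 5% of groups exceed it by chance. Spred2 stood at 1.34 on NT replicate 4, a gap of 0.977 of the range. The Spred1 probe A_55_P2079425 stood at 1.75 on Si1AK replicate 3, a gap of 0.874 of a narrow range. The Spred1 probe of the other transcript variant, A_55_P2090045, stood at -3.76 on NT replicate 1, a gap of 0.872 of the range. No called difference rests on these values.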

How the results depend on the processing

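All 8 called differences of the 10 genes kept their sign under all 28 alternatives, and none was reversed. Some alternatives cannot move a difference, such as dropping the filter on dim probes or leaving out an array of neither group. Under those the sign was fixed in advance, and only the adjusted p could change. Of the 52 that were not called, 16 passed under at least 1 alternative. Counts of called genes are given here in the order Si1AK and Si2AK against SiC, SiC against NT, Si2AK against Si1AK, and Si1AK and Si2AK against NT, where the values reported were 1, 3, 0, 0, 1 and 3. Of all genes, 937, 2818, 0, 2664, 1509 and 3342 were called as reported, or 4.39%, 13.2%, 0%, 12.5%, 7.07% and 15.6%. Totals over all genes follow in brackets, in the same order. The counts of the 10 genes were 1, 4, 0, 1, 1 and 3 with normexp (958, 2786, 0, 2521, 1600 and 3454). With quantile scaling they were 0, 4, 0, 1, 1 and 4 (1238, 3111, 1, 3106, 1925 and 3844). In the authors' table they were 2, 4, 0, 0, 1 and 4 (1324, 3101, 0, 3124, 2005 and 3862). With no filter on dim probes they were 0, 3, 0, 0, 1 and 1 (397, 1522, 0, 1589, 719 and 2025). With probes above background on all arrays they were 1, 3, 0, 1, 1 and 4 (1063, 3119, 0, 2878, 1704 and 3592). With the slide as a block they were 1, 5, 0, 2, 1 and 4 (1380, 3500, 2, 3312, 2228 and 4063). Counts of single slides are left out, since some groups there have 1 array that is assumed to vary like the others. Fitting only the groups compared gave 0, 0, 0, 2, 1 and 1 (248, 90, 0, 2933, 2225 and 2391). Leaving out both arrays of raised signal gave 1, 3, 0, 1, 1 and 4 (991, 2107, 5, 3206, 3124 and 4081). Array weights, which gave SiC replicate 1 a weight of 0.096, gave 5, 5, 0, 3, 1 and 4 (5248, 4884, 7, 4388, 3485 and 4254). The averaged probes of a gene left every count as reported (840, 2483, 0, 2458, 1412 and 3073). Among the 10 genes only Spred1 has more than 1 probe, so averaging could move no other value. Leaving out 1 array at a time gave 0 to 1, 3 to 4, 0, 0 to 1, 1, and 1 to 5, the 5 without SiC replicate 1, where 4578 of all genes were called. For Si2AK against SiC the totals over all genes ran from 1757 without Si2AK replicate 1 to 2807 without NT replicate 4.

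With the replicate number as a block the counts were 1, 6, 0, 2, 1 and 2, where 747, 2678, 0, 2447, 1418 and 2842 of all genes were called. Deviations of same-numbered arrays from their group means correlated between -0.68 and 0.72 (median 0.18, 19 pairs). Those of arrays with different numbers correlated between -0.84 and 0.87 (median -0.03, 54 pairs). The ranges overlap widely, so this check cannot tell whether the numbers pair the samples.

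Scaling moved the median of all genes between -0.07 and 0.06 for Si1AK against SiC, between -0.13 and 0.03 for Si1AK against NT and between -0.04 and 0.10 for Si2AK against Si1AK, so small differences of single genes depend on it. Genes called over the whole table numbered 937 for Si1AK against SiC as reported, against 5248 with array weights, 397 with no filter and 248 from the groups compared alone. For Si2AK against SiC they were 2818, 4884 with weights and 90 from the groups compared alone. The only SiC array of slide 1 is also the one of highest signal, so slide and raised signal cannot be told apart in SiC. With normexp, Dusp5 in Si2AK against NT was 0.46 and lost its call (adjusted p = 0.0894, limma). The cause of these changes was not tested.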
